A study of Homo sapiens with 12 samples.

Results

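Interleukin receptors are the cell surface proteins through which lymphocytes receive cytokine signals. The 10 genes described here are IL2RG, IL2RA, IL15RA, IL7R, IL21R, IL4R, IL13RA1, IL3RA, IL6R and IL1R2, which were taken by symbol from a table of 26210 genes, and all 10 had a row. Most of these proteins are chains of receptors that pair with a second chain and signal through JAK kinases and STAT transcription factors. IL2RG, the common gamma chain, is shared by the receptors for several interleukins (interleukin-2, interleukin-4, interleukin-7, interleukin-15 and interleukin-21 among them), each of which also has other chains. IL1R2 differs from the others because it is a decoy that binds interleukin-1 without passing on a signal. Classical Hodgkin lymphoma (cHL) grows from Hodgkin and Reed-Sternberg (HRS) cells, B cells that have lost most of their B-cell programme and that are known for cytokine signalling through JAK and STAT proteins.

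RNA was measured in 12 libraries, 2 for each of 6 conditions. The cHL cell lines L428, L1236 and KM-H2, grown in IMDM medium, were compared with 2 control lines grown in RPMI medium, the Burkitt's lymphoma line Namalwa and the B-cell precursor leukaemia line Reh (a pro-B line in the labels). Reh cells were also treated with 2 ng/ml phorbol myristate acetate (PMA), an activator of protein kinase C, for a time that the labels do not give (Reh+PMA). All other conditions were untreated, and no line was genetically modified. Each condition is a single cell line, the labels do not say whether duplicate libraries came from separate cultures, and medium cannot be told apart from lymphoma type. Levels are given as FPKM (fragments scaled to gene length and to the size of the library), which allows levels of different genes to be compared, and differences as log2(FPKM + 1) with the standard error (SE).

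Marker genes were compared with the labelled types. HRS markers (TNFRSF8, CCL17, CCL22, FSCN1, TRAF1 and GATA3) had a mean of at least 1 FPKM for 5 or 6 of 6 genes in each Hodgkin line, for 0 in Namalwa, for 1 in Reh and for 2 in Reh+PMA. B-cell markers reached that level for 6 of 6 genes in Namalwa, 5 in Reh, 3 in KM-H2, 1 in L1236 and 0 in L428. KM-H2 also held the T-cell genes CD3D and CD3G, the monocyte genes CD14 and CSF1R and the fibroblast gene COL1A1 at 1 FPKM or more. The fibroblast gene COL3A1 reached that level in L1236, and 4 of 6 B-cell precursor markers (RAG1, VPREB1, VPREB3 and IGLL1) in Namalwa. The part of these genes in the results for those lines was not tested. By qPCR, the paper reports CSF1R transcribed from a long terminal repeat in the Hodgkin lines and, after PMA, in Reh. Duplicates correlated across genes at r = 0.945 in L428 to 0.991 in Reh on the log2(FPKM + 1) scale. The SD of the log2 difference between duplicates was 0.850 to 0.949 in the Hodgkin lines and 0.393 to 0.575 in the other conditions, so single Hodgkin libraries were the less precise ones. The total read depth is unknown because the table holds no counts.

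Upstream sequences of 5 receptors, chosen after their levels were seen, are shown so that their motif content can be set beside those levels. RefSeq starts on GRCh38.p14 gave 15 windows of 250 bases before a transcription start, with at least 1 window for each of the 10 genes. Capitals mark matches to the kappaB motif, the site that NF-kappaB proteins bind, searched on both strands. IL1R2 (second listed start, chr2:101991710-101991959, plus strand) held 1 match that began 125 bases before the start. IL4R (chr16:27313724-27313973, plus strand) held 2 matches, 50 and 10 bases before the start. IL2RA (chr10:6062368-6062617, minus strand) held 2 overlapping matches, 211 and 210 bases before the start. IL2RG (chrX:71111578-71111827, minus strand) and IL7R (chr5:35856641-35856890, plus strand) held none.
IL1R2: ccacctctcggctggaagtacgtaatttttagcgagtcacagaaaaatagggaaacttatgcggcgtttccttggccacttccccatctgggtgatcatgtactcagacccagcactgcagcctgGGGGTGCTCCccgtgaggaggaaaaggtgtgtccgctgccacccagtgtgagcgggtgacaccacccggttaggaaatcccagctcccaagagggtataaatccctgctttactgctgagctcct
IL4R: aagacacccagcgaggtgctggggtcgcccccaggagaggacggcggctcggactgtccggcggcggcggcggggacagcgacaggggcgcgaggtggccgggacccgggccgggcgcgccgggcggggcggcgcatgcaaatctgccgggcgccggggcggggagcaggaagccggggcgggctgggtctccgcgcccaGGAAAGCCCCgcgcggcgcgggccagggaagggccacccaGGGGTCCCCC
IL2RA: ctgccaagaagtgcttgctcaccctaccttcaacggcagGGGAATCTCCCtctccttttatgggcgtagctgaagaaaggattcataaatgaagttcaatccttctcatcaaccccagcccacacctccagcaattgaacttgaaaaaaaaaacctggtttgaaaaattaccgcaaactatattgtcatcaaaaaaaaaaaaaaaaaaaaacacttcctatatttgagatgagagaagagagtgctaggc
IL2RG: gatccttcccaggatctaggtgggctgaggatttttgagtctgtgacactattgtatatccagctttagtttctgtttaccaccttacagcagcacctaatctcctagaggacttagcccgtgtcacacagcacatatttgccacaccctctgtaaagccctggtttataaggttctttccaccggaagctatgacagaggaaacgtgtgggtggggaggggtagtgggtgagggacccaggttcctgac
IL7R: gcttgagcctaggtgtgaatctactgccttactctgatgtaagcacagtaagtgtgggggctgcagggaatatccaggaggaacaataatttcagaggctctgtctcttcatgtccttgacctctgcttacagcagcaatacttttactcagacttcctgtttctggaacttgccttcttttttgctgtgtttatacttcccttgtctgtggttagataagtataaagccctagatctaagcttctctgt

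The kappaB motif was present in 4 of the 15 windows, 1 each of IL1R2, IL15RA, IL2RA and IL4R, and in 9.96% of 35116 windows of the same length over all genes. The AP-1 motif TGANTCA was present in 3 windows, all of IL15RA, and in 6.57% of all windows. Of these IL15RA windows, 2 overlap and share a match. The STAT motif TTCNNNGAA was present in 3 windows, 1 of IL15RA and the X and Y copies of IL3RA, and in 6.57% of all windows. No printed match overlapped a match to another of the 3 motifs. These are descriptions of letters, and the expression data do not show which of these starts was used.

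In genome order, 4 of the receptor genes lie in neighbouring pairs. On GRCh37, the assembly behind the hg19 alignment, IL4R (chr16:27324989-27376099) and IL21R (chr16:27413495-27463363) lie on the plus strand of chromosome 16, separated by 37.4 kb with 0 protein-coding genes between them. IL15RA (chr10:5985602-6020150) and IL2RA (chr10:6052652-6104333) lie on the minus strand of chromosome 10, separated by 32.5 kb with 0 protein-coding genes between them. IL2RG (chrX:70327254-70331958, minus strand) and IL13RA1 (chrX:117861096-117928498, plus strand) are X-linked. IL1R2 is at chr2:102608422-102645006, IL6R at chr1:154377669-154441926 and IL7R at chr5:35852797-35879705, all on the plus strand. Other annotated genes overlap 6 of the tested receptors, so reads could be shared. On the same strand these are a second protein-coding gene model for IL2RG (ENSG00000285171, 4172 bases), the non-coding ENSG00000232807 for IL15RA (2262 bases), SNORA35 and the pseudogene TMEM30BP1 for IL13RA1, and SNORA14 for IL2RA. Non-coding genes lie opposite IL2RA, IL4R and IL21R, and also opposite IL6R.

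**Figure D1:**
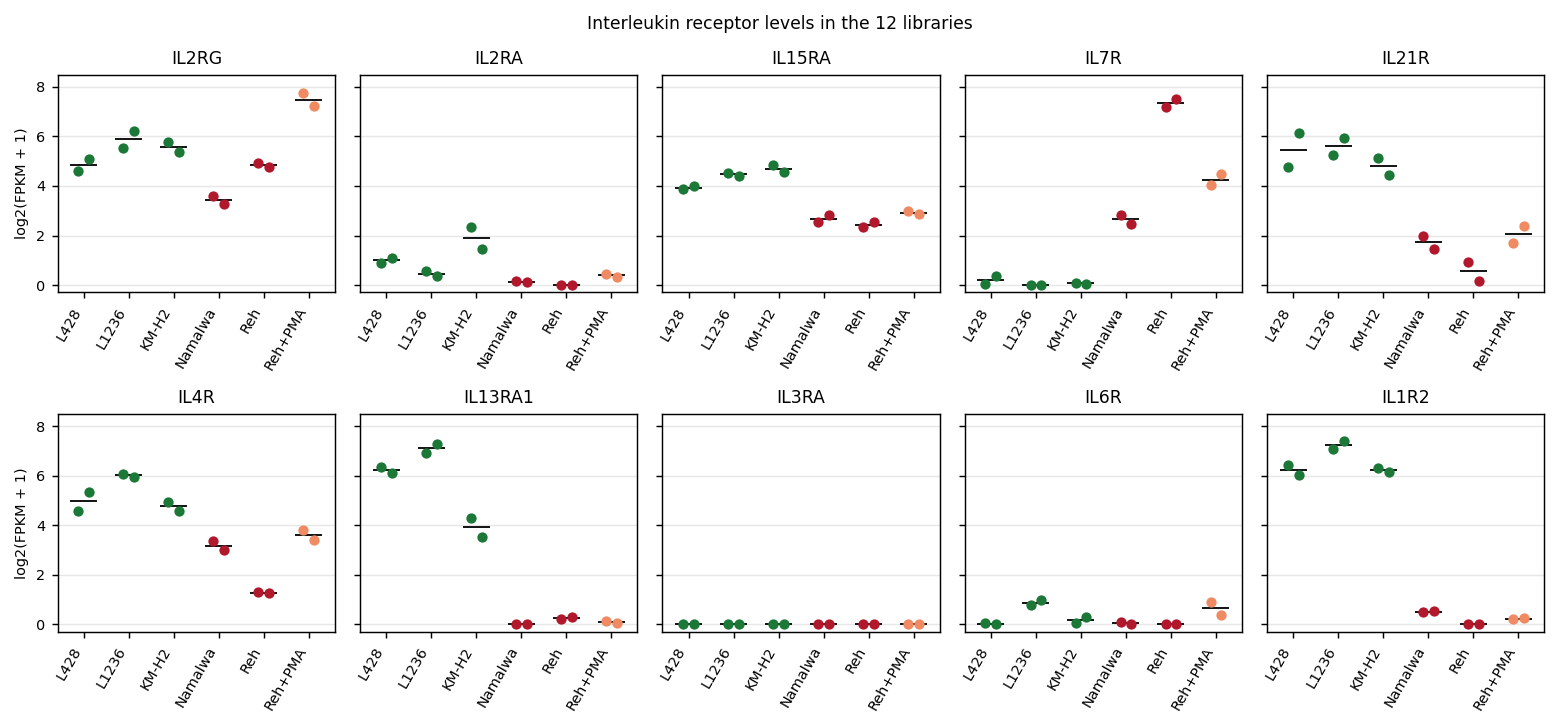
Levels of the 10 receptors as log2(FPKM + 1) (vertical axis) in the 6 conditions, where each point is 1 library and each bar the mean of 2 libraries (green, Hodgkin lines; red, control lines; orange, Reh+PMA). IL1R2 and IL13RA1 were high in the 3 Hodgkin lines and near 0 elsewhere, IL7R showed the opposite order, IL2RG was highest in Reh+PMA, and IL3RA was listed at 0 in every library.

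Most of the tested receptors had higher values in the Hodgkin lines than in the control lines, and IL7R had lower ones. A total of 14679 genes reached 1 FPKM in at least 2 libraries and were tested, among them 8 of the 10 receptors, with IL3RA and IL6R below that limit. In 6 of these 8 receptors (IL1R2, IL13RA1, IL21R, IL4R, IL15RA and IL2RA) all 6 Hodgkin libraries lay above all 4 control libraries, as for 9.5% of all genes tested. In 1 of 8, IL7R, all 6 lay below, beside 8.06% of all genes tested, a share from which nothing is read about the receptors. IL2RG was the receptor whose groups overlapped. With each line as 1 value (3 Hodgkin against 2 control lines), 2 of 8 receptors were called higher, meaning an adjusted p under 0.05 and at least 1 log2 unit, and 0 lower, with 6 of 8 at an unadjusted p under 0.05, as for 13.5% of all genes tested. Over all genes tested, 0.32% were called higher and 0.225% lower in this comparison. The median difference was 2.41 log2 units over the 8 receptors and 0.02 over all genes. IL1R2, IL13RA1 and IL2RA passed the filter only through Hodgkin libraries, and IL7R only through the others, so each of these had to differ. The counts and the median over the tested receptors are therefore descriptions, and nothing is supported with them.

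Against the spread between duplicate libraries, each Hodgkin line was also compared with the mean of Namalwa and Reh. In L428, 5 of 8 receptors were higher and 1 was lower, beside 16.2% and 13.8% of all genes tested. For L1236 the counts were 6 higher and 1 lower, beside 15.7% and 13.3%. For KM-H2 they were 7 higher and 1 lower, beside 16.8% and 13.5%. IL7R was the lower receptor in each line. These comparisons share the 4 control libraries, and their p-values measure only the spread between duplicates, which may be technical.

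**Figure D2:**
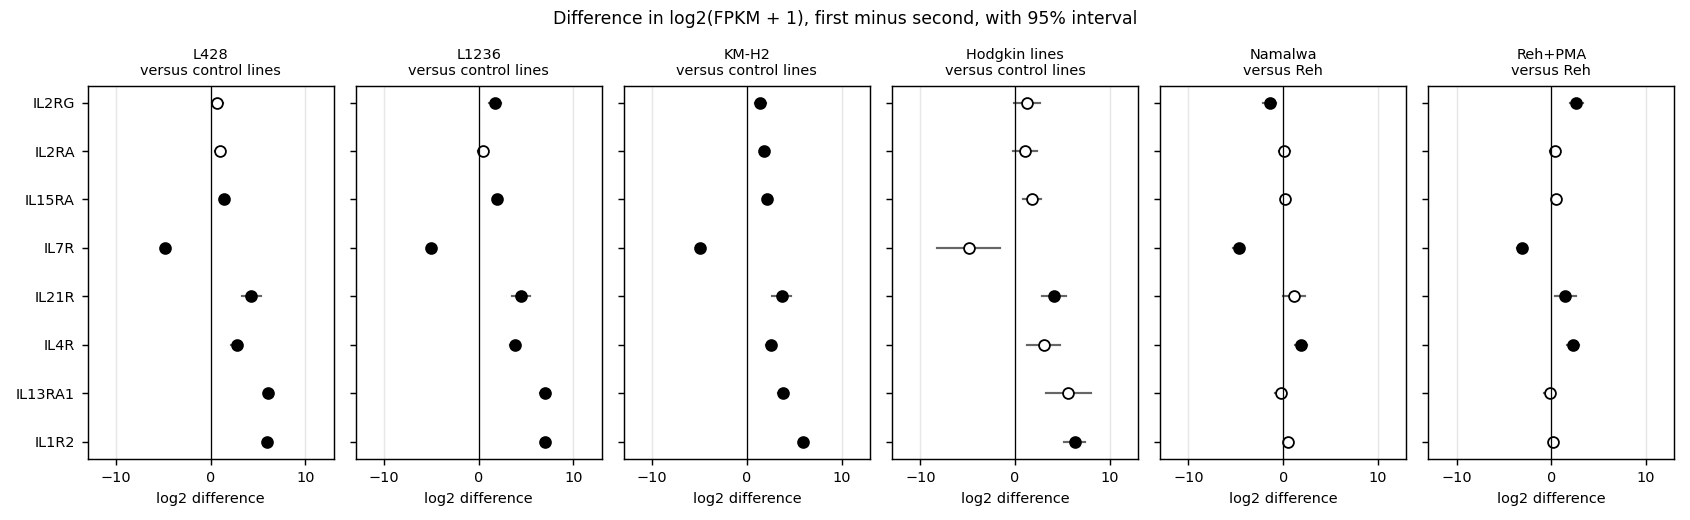
Difference in log2(FPKM + 1) (horizontal axis) of the 8 tested receptors in 6 comparisons, with 95% intervals as lines. Filled points passed an adjusted p under 0.05 and at least 1 log2 unit, open points did not. IL7R lies to the left of 0 in all 6 comparisons, and IL1R2 and IL13RA1 lie farthest to the right in the comparisons of L428 and L1236 with the control lines.

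IL2RG encodes the common gamma chain. Its level was 23.6 and 33.3 FPKM in L428, 44.9 and 74.5 in L1236, and 53.4 and 39.9 in KM-H2. In the control lines it was 11.2 and 8.79 FPKM in Namalwa and 29.3 and 26.5 in Reh, so L428 overlapped with Reh. Reh+PMA had the highest values, 215 and 148 FPKM. Against the control lines the difference was 1.73 log2 units in L1236 (SE 0.27, adjusted p = 0.000641) and 1.41 in KM-H2 (SE 0.27, adjusted p = 0.00207), and 0.71 in L428, which did not pass (adjusted p = 0.0531). Taken by lines it was 1.29 (95% interval -0.06 to 2.63, adjusted p = 0.391). Of the control lines, Namalwa was lower than Reh by 1.40 log2 units (adjusted p = 0.00866), and the KM-H2 difference against Reh alone was 0.71 and not called (adjusted p = 0.0928).

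IL2RA, the alpha chain that gives the interleukin-2 receptor high affinity and is also known as CD25, was low throughout. KM-H2 had 4.03 and 1.71 FPKM, L428 0.863 and 1.15, and L1236 0.489 and 0.274. Namalwa had 0.111 and 0.076 FPKM, and IL2RA was listed at 0 in both Reh libraries. The KM-H2 libraries were the highest although they differed from each other by more than any other pair of duplicates for this gene. The difference from the control lines was 1.82 log2 units in KM-H2 (SE 0.22, adjusted p = 0.000125), 0.94 in L428 (SE 0.22, adjusted p = 0.00661), which is under 1 log2 unit, and 0.40 in L1236 (adjusted p = 0.168). With a pseudocount of 0.1 the L1236 difference was 1.76 and passed (adjusted p = 0.0048), and the L428 difference was 2.98 (adjusted p = 0.000214). By lines it was 1.05 (95% interval -0.25 to 2.35, adjusted p = 0.446). IL2RA passed the filter only through Hodgkin libraries, so these tests against control lines are descriptions.

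IL2RB, the beta chain that joins IL2RG in the interleukin-2 and interleukin-15 receptors, had 7.13 and 4.40 FPKM in L428, 9.31 and 6.10 in L1236, and a mean of 11.2 ± 5.34 (SD, n = 2) in KM-H2. In both Namalwa and both Reh libraries it was listed at 0. The difference from the control lines was 2.73 log2 units in L428 (adjusted p = 5.12e-05), 3.10 in L1236 (adjusted p = 2.11e-05) and 3.54 in KM-H2 (adjusted p = 8.97e-06). IL2RB passed the filter only through Hodgkin libraries, so these tests are descriptions.

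IL15RA, which binds interleukin-15 and presents it to IL2RB and IL2RG, was detected in every library. Its level was 13.7 and 14.8 FPKM in L428, 21.9 and 20.3 in L1236, and 27.7 and 22.7 in KM-H2. Namalwa had 4.78 and 6.14 FPKM, Reh 4.06 and 4.82, and Reh+PMA 6.90 and 6.27. All 6 Hodgkin libraries were at least 13.7 FPKM and all 4 control libraries at most 6.14. IL15RA was higher by 1.37 log2 units in L428 (SE 0.17, adjusted p = 0.000157), 1.90 in L1236 (adjusted p = 1.75e-05) and 2.14 in KM-H2 (adjusted p = 8.37e-06) relative to the control lines. With line as the unit the difference was 1.80 (95% interval 0.86 to 2.75) and did not pass (adjusted p = 0.165).

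Its ligand IL15 was also measured. It had 3.31 and 7.58 FPKM in L428, 1.78 and 2.29 in L1236, 10.9 and 14.9 in KM-H2, 0.0473 and 0 in Namalwa, and 1.31 and 1.34 in Reh. IL15 was called higher than in the control lines in L428 (1.98 log2 units, adjusted p = 0.000279) and KM-H2 (3.15, adjusted p = 1.33e-05), and lower in Namalwa than in Reh by 1.18 (adjusted p = 0.0198). Transcripts of all 3 chains of the interleukin-15 receptor and of the ligand were therefore detected in each of the Hodgkin lines.

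IL7R, the chain that joins IL2RG in the interleukin-7 receptor, ran against the other receptors. Reh had 146 and 183 FPKM, Reh+PMA 15.4 and 21.4, and Namalwa 6.11 and 4.54. In the Hodgkin lines it was 0.0351 and 0.302 FPKM in L428, 0.0635 and 0.0419 in KM-H2, and listed at 0 in both L1236 libraries. Reh stood above every other condition, and no Hodgkin library reached the lowest control library. IL7R differed from the control lines by -4.79 log2 units in L428 (SE 0.21, adjusted p = 3.14e-07), -5.01 in L1236 (adjusted p = 1.83e-07) and -4.93 in KM-H2 (adjusted p = 2.11e-07).

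With line as the unit the IL7R difference was -4.91 log2 units (SE 1.35, 95% interval -8.28 to -1.54) and did not pass (adjusted p = 0.243). The filter was passed only outside the Hodgkin lines, so tests of Hodgkin against control lines are descriptions for IL7R. The control lines themselves differed, with Namalwa lower than Reh by 4.71 log2 units and by 30.9-fold in mean FPKM (adjusted p = 1.14e-06). The summed level of 6 B-cell precursor markers (DNTT, RAG1, VPREB1, VPREB3, IGLL1 and ERG) was 1262 to 1378 FPKM in Reh, 128 to 179 in Namalwa, and 0.273 to 1.97 over the Hodgkin libraries, and its part in the IL7R result was not tested. The ligand IL7 had 0.919 and 1.49 FPKM in L428, 1.65 and 0.762 in L1236, and 3.39 and 2.01 in KM-H2. It had 0.0593 and 0 FPKM in Namalwa and was listed at 0 in both Reh libraries. IL7 was called higher in all 3 Hodgkin lines, by 1.11, 1.09 and 1.84 log2 units in L428, L1236 and KM-H2 (adjusted p = 0.00201, 0.00219 and 8.54e-05). It passed the filter only through Hodgkin libraries, so these calls are descriptions.

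IL21R pairs with IL2RG to bind interleukin-21, a T-cell cytokine that acts on B cells in germinal centres. Its level was 26.0 and 68.5 FPKM in L428, 37.1 and 61.1 in L1236, and 34.5 and 20.7 in KM-H2. Namalwa had 2.94 and 1.76 FPKM, Reh 0.896 and 0.128, and Reh+PMA 2.26 and 4.21. The groups did not overlap, although the L428 duplicates stood far apart. The difference from the control lines was 4.30 log2 units in L428 (SE 0.44, adjusted p = 4.73e-05), 4.47 in L1236 (adjusted p = 3.56e-05) and 3.66 in KM-H2 (adjusted p = 0.000125). With line as the unit it was 4.14 (SE 0.50, 95% interval 2.89 to 5.39, adjusted p = 0.0478). This call was lost when any 1 of the 6 Hodgkin libraries was left out (adjusted p = 0.0561 to 0.0771), and also without Namalwa library 1 (0.0636) or Reh library 0 (0.0605). It was also lost with no filter on low values (0.139), a pseudocount of 0.1 (0.0692) or 0.5 (0.0536), quantile normalization (0.0602) or any 1 line left out (0.0579 to 0.232).

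IL21R overlaps IL21R-AS1, an antisense RNA gene on the opposite strand, by 4374 bases, and the 2 genes cannot be told apart if counting ignored strand, which the sources used here do not state. IL21R-AS1 had 28.0 and 0.0609 FPKM in L428, 29.6 and 0.125 in L1236, and 26.6 and 13.9 in KM-H2. Namalwa had 3.13 and 2.47 FPKM, Reh 1.29 and 0.0424, and Reh+PMA 0 and 0.0752. In L428 and L1236 the library with the higher IL21R value was the one with IL21R-AS1 near 0. In the other 4 conditions the library with the higher IL21R value also had the higher IL21R-AS1 value.

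**Figure D3:**
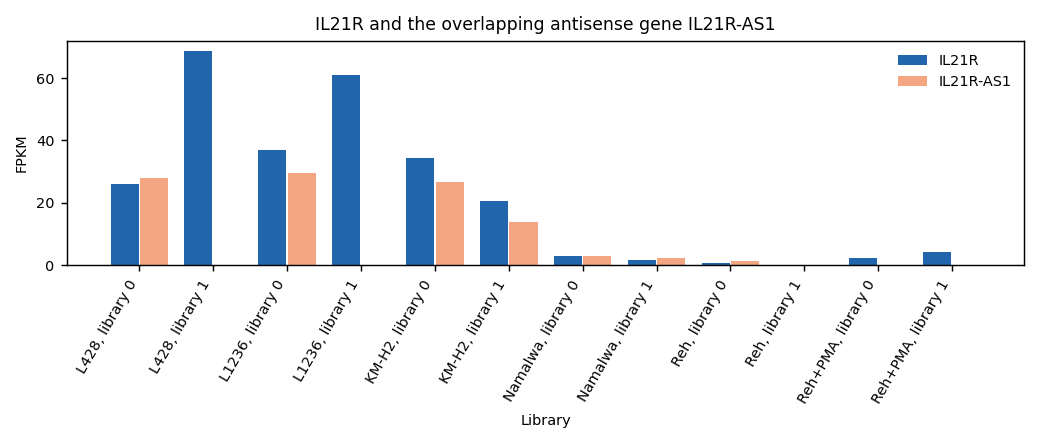
FPKM of IL21R (blue bars) and of the overlapping antisense gene IL21R-AS1 (orange bars) in each of the 12 libraries. IL21R-AS1 was 28.0 FPKM in L428 library 0 and 0.0609 in L428 library 1, while IL21R was 26.0 and 68.5 FPKM in the same libraries.

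Values for the ligands of IL21R and of the interleukin-2 receptor were mostly 0, which in this table need not mean absence. IL21 had 1.19 and 1.24 FPKM in KM-H2 and passed the filter only through these libraries, so its test is not read, and it was listed at 0 in every other library. IL2 was listed at 0 in all 12 libraries. KM-H2 was the line in which CD3D and CD3G were also above 1 FPKM.

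IL4R binds interleukin-4 with IL2RG, or interleukin-4 and interleukin-13 with IL13RA1, and signals through STAT6. Its level was 23.0 and 39.8 FPKM in L428, 66.7 and 61.4 in L1236, and 29.9 and 23.2 in KM-H2. Namalwa had 9.23 and 7.02 FPKM, Reh 1.48 and 1.38, and Reh+PMA 12.9 and 9.65. All 6 Hodgkin libraries were above all 4 control libraries, with L1236 the highest. The difference from the control lines was 2.74 log2 units in L428 (SE 0.24, adjusted p = 1.92e-05), 3.79 in L1236 (adjusted p = 2.18e-06) and 2.54 in KM-H2 (adjusted p = 2.88e-05). By lines it was 3.02 (95% interval 1.28 to 4.76) and did not pass (adjusted p = 0.190). Namalwa was higher than Reh by 1.90 log2 units (SE 0.28, adjusted p = 0.00086), a 5.69-fold difference in mean FPKM.

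IL13RA1, the chain that completes the interleukin-13 receptor with IL4R, was close to 0 outside the Hodgkin lines. It had 80.2 and 68.8 FPKM in L428, 121 and 156 in L1236, and 18.5 and 10.6 in KM-H2. It was listed at 0 in both Namalwa libraries and had 0.160 and 0.242 FPKM in Reh and 0.101 and 0.0478 in Reh+PMA. The difference from the control lines was 6.10 log2 units in L428 (SE 0.23, adjusted p = 1.72e-07), 6.98 in L1236 (adjusted p = 5.23e-08) and 3.78 in KM-H2 (adjusted p = 1.57e-06). Between lines it was 5.62 (SE 0.96, 95% interval 3.22 to 8.02) and did not pass (adjusted p = 0.107), and it passed with Reh+PMA added as a further control value (adjusted p = 0.0221), which is the Reh line again and not an independent line. KM-H2 lay below L428 by 2.32 log2 units (adjusted p = 0.000128), so the Hodgkin lines were not alike for this receptor. The filter was passed only through Hodgkin libraries, so the tests of IL13RA1 against control lines are descriptions.

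IL13RA2, a decoy for interleukin-13, had at most 0.220 FPKM in any library and was listed at 0 in every Namalwa, Reh and Reh+PMA library. The ligand IL13, by contrast, had 13.4 and 19.7 FPKM in L428, 0.745 and 0.544 in L1236, and 0.238 and 0.615 in KM-H2, and was listed at 0 in the remaining libraries. Only the L428 libraries reached 1 FPKM for IL13, so it passed the filter through the line in which it is high and its test is not read. IL4 had 1.11 and 1.40 FPKM in L1236, was listed at 0 in the libraries of the other 5 conditions, and likewise passed the filter only through L1236.

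IL3RA, the private alpha chain for interleukin-3, was listed at 0 in all 12 libraries and was not tested. It lies in the pseudoautosomal region shared by the X and Y chromosomes (chrX:1455509-1501582 and chrY:1405509-1451582). Of 18 protein-coding genes annotated on both chromosomes and present in the table, 17 were listed at 0 in every library, among them SLC25A6 and CD99, which are widely expressed genes. Over the 18028 protein-coding genes of the table, 9.2% were listed at 0 in every library. These zeros may therefore be failed estimates, and nothing is read from them about IL3RA expression. CSF2RB, the beta chain that IL3RA needs to signal, had 0.0625 and 0.0953 FPKM in L428, 16.2 and 18.1 in L1236, 9.10 and 10.5 in KM-H2, 3.61 and 2.82 in Namalwa, and 7.59 and 7.81 in Reh. CSF2RB was called lower than in the control lines in L428 (-2.49 log2 units, adjusted p = 2.83e-06) and higher in L1236 (1.58, adjusted p = 4.91e-05). The ligand IL3 was listed at 0 in every library.

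IL6R binds interleukin-6 and then recruits IL6ST (gp130), which signals. It stayed under 1 FPKM in every library and was not tested. The higher values were 0.703 and 0.959 FPKM in L1236 and 0.881 and 0.298 in Reh+PMA, and all other libraries were at 0.217 or below. IL6ST had 5.18 and 10.1 FPKM in L428, 17.5 and 22.7 in L1236, and 6.99 and 8.31 in KM-H2. In the control lines IL6ST had 1.32 and 1.37 FPKM in Namalwa and 3.50 and 4.27 in Reh. It was called higher in L428 (1.29 log2 units, adjusted p = 0.00206), L1236 (2.63, adjusted p = 2.39e-05) and KM-H2 (1.35, adjusted p = 0.00155).

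The ligand IL6 had 4.31 and 10.3 FPKM in L428, 42.7 and 60.9 in L1236, and 2.09 and 4.37 in KM-H2, and was listed at 0 in all 4 control libraries. It was called higher in L428 (2.96 log2 units, adjusted p = 7.73e-05), L1236 (5.70, adjusted p = 1.07e-06) and KM-H2 (2.03, adjusted p = 0.000781). IL6 passed the filter only through Hodgkin libraries, so these calls are descriptions. L1236 thus had the highest values of IL6, IL6ST and, among the untreated lines, IL6R.

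IL1R2, the interleukin-1 decoy receptor, showed the largest log2(FPKM + 1) difference between Hodgkin and control lines of the 8 tested receptors when line was the unit. In mean FPKM the difference was 466-fold for IL1R2, 755-fold for IL13RA1 and 1151-fold lower for IL7R. The IL1R2 level was 85.3 and 64.8 FPKM in L428, 135 and 166 in L1236, and 77.8 and 69.9 in KM-H2. Namalwa had 0.401 and 0.457 FPKM, Reh+PMA 0.153 and 0.179, and IL1R2 was listed at 0 in both Reh libraries. The lowest Hodgkin library (64.8 FPKM) lay far above the highest control library (0.457 FPKM). With line as the unit the difference was 6.31 log2 units (SE 0.45, 95% interval 5.19 to 7.43, adjusted p = 0.0138). The call was lost with no filter on low values (adjusted p = 0.0722) and when any 1 of the 5 lines was left out (0.0506 to 0.143), while the difference then stayed between 5.97 and 6.57. For single lines it was 5.98 in L428 (adjusted p = 7.78e-08), 6.98 in L1236 (adjusted p = 1.86e-08) and 5.97 in KM-H2 (adjusted p = 2.97e-08). IL1R2 passed the filter only through Hodgkin libraries and had to differ, so these tests are descriptions and nothing is supported with them.

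The signalling chains of the interleukin-1 receptor had other patterns. IL1R1, the chain that signals, had 41.0 and 34.1 FPKM in L1236, where it was called higher by 5.00 log2 units (adjusted p = 2.08e-05). It had 0.122 and 0.380 FPKM in L428, 2.60 and 0.491 in KM-H2, 0.471 and 0.414 in Reh, and was listed at 0 in Namalwa. IL1RAP, its accessory chain, had 1.19 to 4.93 FPKM in the untreated libraries. Of the ligands, IL1B had 2.39 and 3.39 FPKM in Reh and at most 0.129 in any Hodgkin or Namalwa library. It passed the filter only through Reh and Reh+PMA. Its call as lower in Namalwa than in Reh (-1.83 log2 units, adjusted p = 0.0261) is therefore a description. IL1A reached 1.13 FPKM in 1 KM-H2 library and IL1RN, the soluble antagonist, stayed at 0.328 or below.

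**Figure D4:**
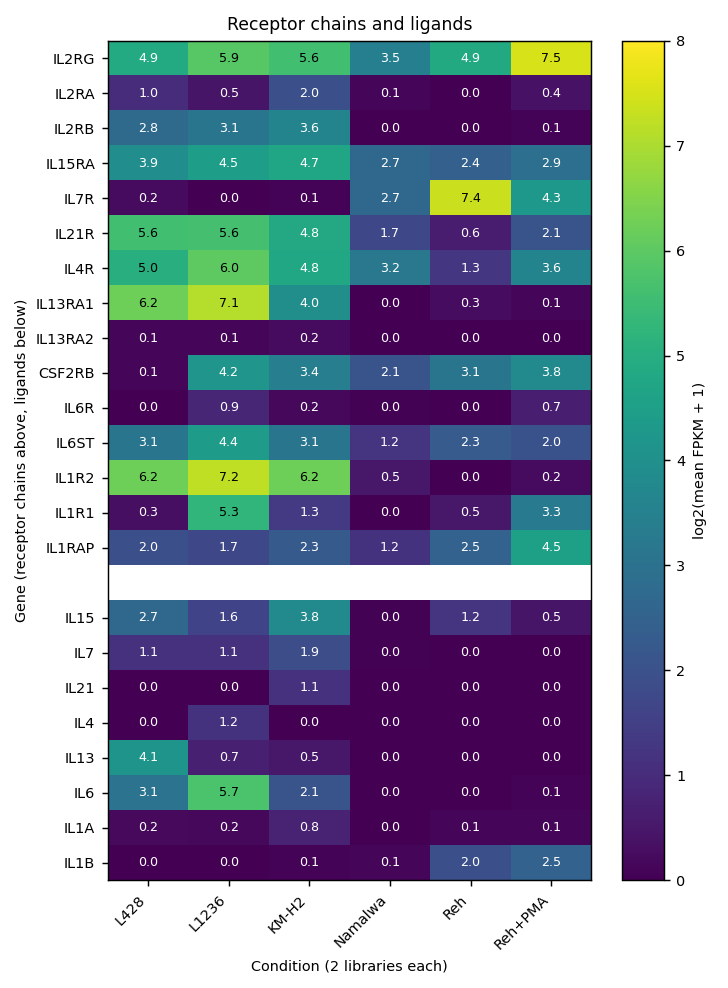
Mean level of receptor chains (upper rows) and ligands (lower rows) in the 6 conditions, as log2(mean FPKM + 1) of 2 libraries, with the value in each cell and colour from 0 (dark) to 8 (yellow). IL2RB and IL6 were at 0.1 or below in Namalwa, Reh and Reh+PMA, IL1R1 was highest in L1236 and IL13 in L428.

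PMA treatment of Reh addressed which receptors an inflammatory stimulus changes in a precursor B-cell line. IL2RG and IL4R rose, IL21R rose by a narrow margin, and IL7R fell. Of the 8 tested receptors, 3 were called higher and 1 lower, beside 10.5% and 11.8% of all genes tested. The median difference was 0.43 log2 units over the 8 receptors and -0.03 over all genes.

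IL2RG rose from 29.3 and 26.5 FPKM to 215 and 148, a difference of 2.64 log2 units (SE 0.31, adjusted p = 0.000369) and 6.51-fold in mean FPKM. IL4R rose from 1.48 and 1.38 FPKM to 12.9 and 9.65, by 2.32 log2 units (SE 0.28, adjusted p = 0.000432) and 7.89-fold. IL7R fell from 146 and 183 FPKM to 15.4 and 21.4, a change of -3.10 log2 units (SE 0.24, adjusted p = 3.64e-05) and 8.95-fold lower. In these 3 genes the duplicates of treated and untreated cells did not overlap. IL21R rose from 0.896 and 0.128 FPKM to 2.26 and 4.21, by 1.50 log2 units (SE 0.50, adjusted p = 0.0496). The IL21R call was not stable, with an adjusted p of 0.251 without Reh library 1, 0.232 without Reh+PMA library 1 and 0.0808 with no filter on low values.

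IL15RA differed by 0.48 log2 units (95% interval 0.04 to 0.92, adjusted p = 0.0881) and was not called. IL2RA and IL1R2, listed at 0 in both Reh libraries, had 0.376 and 0.244 FPKM and 0.153 and 0.179 FPKM after PMA (adjusted p = 0.280 and 0.446), and passed with a pseudocount of 0.1 (adjusted p = 0.00947 and 0.00349). IL13RA1 was near 0 in both conditions (-0.16 log2 units, 95% interval -0.75 to 0.43, adjusted p = 0.720). IL1R2 and IL13RA1, the receptors with the largest log2 differences between Hodgkin and control lines by line, therefore had at most 0.179 and 0.101 FPKM in Reh+PMA.

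Marker lists differed between the same libraries. The summed level of the 6 B-cell precursor markers was 1262 to 1378 FPKM in Reh and 150 to 173 in Reh+PMA. Of 5 monocyte markers, CSF1R alone reached 1 FPKM in Reh+PMA, and the sum over the list was 11.6 to 12.1 FPKM there and 0.591 to 1.18 in Reh. The summed HRS markers were 15.4 to 16.5 FPKM in Reh and 40.5 to 49.1 in Reh+PMA, with TRAF1 at 1 FPKM or more after PMA. Their part in the receptor results was not tested. In bulk RNA, fewer cells of a type and less RNA per cell cannot be told apart.

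Between the control lines, 1 of 8 receptors (IL4R) was called higher in Namalwa than in Reh and 2 (IL2RG and IL7R) were called lower, beside 7.5% and 11.5% of all genes tested. IL21R differed by 1.17 log2 units (95% interval 0.03 to 2.31, adjusted p = 0.133) and IL15RA by 0.24 (95% interval -0.19 to 0.68, adjusted p = 0.449). With a pseudocount of 0.1 the count was 6, with IL21R (2.32, adjusted p = 0.0456), IL1R2 (2.40, adjusted p = 8.46e-05) and IL13RA1 (-1.58, adjusted p = 0.00904) also called. The IL2RG call was lost without Namalwa library 1 (adjusted p = 0.0632) or Reh library 0 (0.0658).

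Ordering the 6 conditions by mean level gave 5 neighbouring pairs for each tested receptor. Of these 40 pairs, 14 differed by the same criterion, as did 8.42% of the 73395 neighbouring pairs over all genes tested. The order came from the same libraries. IL1R2, IL13RA1 and IL7R had to differ between Hodgkin and control lines through the filter, so the count is a description. IL7R had 3 called steps, with Reh above Reh+PMA, Reh+PMA above Namalwa by 1.61 log2 units (adjusted p = 0.000662) and Namalwa above L428 by 2.43 (adjusted p = 4.47e-05), while the steps among the 3 Hodgkin lines were not called. In IL2RG, Reh+PMA stood above L1236 by 1.61 (adjusted p = 0.00221) and Reh above Namalwa, and the order L1236, KM-H2, L428, Reh held no called step. IL4R also had 3 called steps, with L1236 above L428 (1.05, adjusted p = 0.0189), KM-H2 above Reh+PMA (1.17, adjusted p = 0.00685) and Namalwa above Reh.

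IL21R and IL15RA had 1 called step each, between the lowest Hodgkin line and Reh+PMA (2.75 log2 units, adjusted p = 0.00161, and 1.01, adjusted p = 0.0022). In IL1R2, L1236 stood above L428 (1.00, adjusted p = 0.00441) and KM-H2 above Namalwa (5.71, adjusted p = 8.91e-08), and L428 and KM-H2 differed by 0.01 (95% interval -0.43 to 0.46). In IL13RA1, L428 stood above KM-H2 and KM-H2 above Reh (3.65, adjusted p = 4.66e-06). With the 6 Hodgkin libraries fitted alone and the column index as a replicate block, the steps from L1236 to L428 were not called in IL4R (adjusted p = 0.112) or IL1R2 (0.0592). Between Hodgkin lines, 4 of 8 receptors differed for KM-H2 and L1236, 1 for KM-H2 and L428 and 3 for L1236 and L428, beside 26.6%, 26.6% and 21.9% of all genes tested. IL2RA had no called step, the largest being KM-H2 above L428 by 0.89 (adjusted p = 0.0218), which is under 1 log2 unit.

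Other chains of interleukin receptors were counted from a list of 33 genes, of which 19 were tested. In the comparison by lines, 1 of 19 was called higher (IL18R1, a chain of the interleukin-18 receptor, 4.46 log2 units, adjusted p = 0.0411) and 0 lower, beside 0.32% and 0.225% of all genes tested. In limma 6 of 19 had an unadjusted p under 0.05, beside 13.5% of all genes tested. For L428 the counts were 7 higher and 2 lower, for L1236 11 and 1, and for KM-H2 9 and 0, against 16.2% and 13.8%, 15.7% and 13.3%, and 16.8% and 13.5% of all genes tested. IL18R1, IL5RA, IL1RL1 and IL2RB were among those that passed the filter only through Hodgkin libraries, so these counts and the IL18R1 call are descriptions. IL5RA, the interleukin-5 chain, had 27.4 and 58.8 FPKM in L428, 24.4 and 28.5 in L1236, and 0 and 1.07 in KM-H2, and was listed at 0 in Namalwa and Reh. IL10RA, the ligand-binding chain for interleukin-10, had 60.1 and 60.2 FPKM in L1236, 7.26 and 13.1 in L428, 21.6 and 14.1 in KM-H2, 6.18 and 7.12 in Namalwa, and was listed at 0 in Reh. It was called higher in all 3 Hodgkin lines against the mean of Namalwa and Reh, which the 0 in Reh lowers. The lower L428 library (7.26 FPKM) was close to the higher Namalwa library (7.12 FPKM).

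With PMA, 3 of these 19 chains rose and 2 fell, counts that lie near the 10.5% and 11.8% of all genes tested and are no result about the list. IL1R1 rose from 0.471 and 0.414 to 13.7 and 3.71 FPKM (2.53 log2 units, adjusted p = 0.00658). IL1RAP rose from 4.93 and 4.46 to 12.8 and 31.7 FPKM (1.90, adjusted p = 0.00549), and IL27RA, a chain of the interleukin-27 receptor, from 5.82 and 7.83 to 37.6 and 43.2 FPKM (2.41, adjusted p = 0.000173). IL12RB1, shared by the interleukin-12 and interleukin-23 receptors, fell (-1.59, adjusted p = 0.00274), as did IL17RC (-1.45, adjusted p = 0.00319). Between Namalwa and Reh, 2 of the 19 were called higher and 4 lower in Namalwa, beside 7.5% and 11.5% of all genes tested, led by IL10RA (2.93, adjusted p = 5.58e-05) and IL17RC (-2.90, adjusted p = 3.36e-05).

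Ligands of the 10 receptors numbered 11, of which 7 were tested. In the comparison by lines 0 of 7 were called by limma, beside 0.32% higher and 0.225% lower over all genes tested, and 3 had an unadjusted p under 0.05, beside 13.5%. With PMA 0 of 7 were called, beside 10.5% higher and 11.8% lower, and 1 had an unadjusted p under 0.05, beside 42.7%. Against the control lines 4 ligands were higher in L428, 3 in L1236 and 4 in KM-H2, and 0 were lower in any of the 3 lines, beside 16.2%, 15.7% and 16.8% higher and 13.3% to 13.8% lower over all genes tested. IL6 and IL7 were called higher in all 3 Hodgkin lines but passed the filter only through Hodgkin libraries, as did IL13 through L428, IL4 through L1236 and IL21 through KM-H2, so these counts are descriptions. Between Namalwa and Reh, 0 were higher and 2 lower in Namalwa, beside 7.5% and 11.5% of all genes tested. Among the 2, IL1B passed the filter only through Reh and Reh+PMA, so this count is also a description.

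Kinases, STAT factors and feedback inhibitors downstream of the receptors formed a list of 13 genes, and all 13 were tested. In the comparison by lines 0 of 13 were called by limma, beside 0.32% higher and 0.225% lower over all genes tested, and 7 had an unadjusted p under 0.05, beside 13.5%. Against the control lines 7 were higher in L428, 9 in L1236 and 8 in KM-H2, and 0 were lower, beside 16.2%, 15.7% and 16.8% higher and 13.3% to 13.8% lower over all genes tested. SOCS3 and CISH passed the filter only through Hodgkin libraries, so these counts, and tests of both genes against control lines, are descriptions. STAT5A had 90.2 and 73.0 FPKM in L428 and 4.54 and 3.60 in Reh, and the L428 difference was 4.53 log2 units (adjusted p = 2.61e-07). SOCS3, a feedback inhibitor that STAT factors induce, was higher in L1236 by 4.79 (adjusted p = 2.55e-06), and JAK3, the kinase that binds IL2RG, in KM-H2 by 2.85 (adjusted p = 5.87e-05). The SOCS3 value is thus a description. With PMA 2 of 13 rose and 2 fell, near the 10.5% and 11.8% of all genes tested. STAT3 (1.73, adjusted p = 0.000465) and JAK3 (1.21, adjusted p = 0.0274) rose, and SOCS2 (-2.12, adjusted p = 0.000321) and STAT5A (-1.28, adjusted p = 0.00245) fell. Between Namalwa and Reh, 0 were higher and 3 lower in Namalwa, beside 7.5% and 11.5% of all genes tested, led by SOCS2 (-4.09, adjusted p = 2.69e-06).

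The genes whose pattern was most like each receptor were found by Pearson's r over the 12 libraries on the log2(FPKM + 1) scale, among 14671 tested genes. For IL13RA1 they were led by the chemokine receptor CCR7 (r = 0.998) and by GPR15 (r = 0.997). For IL1R2 they were ZYG11A (r = 0.996) and ANXA1 (r = 0.994), for IL7R UACA (r = 0.995) and UBASH3B (r = 0.991), and for IL15RA DHRS2 (r = 0.983). IL2RA was most like LINC00158 (r = 0.977), IL21R like NCEH1 (r = 0.972), IL4R like FNDC3B (r = 0.970) and IL2RG like RHOBTB3 (r = 0.969). The 12 libraries are 6 pairs of duplicates, and genes that differ between lymphoma types share that split, so these values only describe which rows look alike.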

How the data were processed

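RNA was extracted from the 6 conditions and libraries were made in duplicate with the TruSeq Stranded Total RNA kit after ribosomal RNA depletion. The sequencers were HiSeq and NextSeq instruments, which are not assigned to libraries in the sources used here. The deposited table holds FPKM values that the authors made per gene symbol. The submitters' processing notes name hg19, TopHat2 2.0.11 and Cuffnorm 2.2.1, and the annotation and strand setting are not given in the sources used here. Genes with at least 1 FPKM in at least 2 of 12 libraries were kept (14679 of 26210), a pseudocount of 1 was added, and log2 values were fitted with limma 3.58.1 in R 4.3.3 (1 coefficient per condition, trended empirical Bayes, Benjamini-Hochberg adjustment over all 14679 genes). The comparison of 3 Hodgkin with 2 control lines used the mean log2 value of each line. All tests were two-sided. A gene was called at an adjusted p under 0.05 and a difference of at least 1 log2 unit. A difference on this scale understates the change of genes with low values. The scripts were tested on simulated data.

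Column names give the condition and an index (0 or 1) that does not match the labelled replicate numbers, so columns were assigned to conditions only. All 10 receptors were described, with up to 4 called genes of each companion list having the largest differences, partner chains and ligands. Receptors and lists were chosen with earlier results of these data known. Alternatives were other pseudocounts (0.1 and 0.5), no filter, other scalings, no trend, single libraries or lines left out, other control sets, and, added after seeing the data, the column index as a replicate block and the Hodgkin libraries fitted alone. Positions are from GENCODE on GRCh37 and upstream windows from RefSeq on GRCh38.p14, used for sequence only. 1 marker list is not reported here.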

Additional observations from a re-analysis of the deposited data

Results flagged for a closer look

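Differences between Hodgkin lines were read because the 3 lines share the same controls, so that a difference between 2 of them is also the difference of their effects. For 8 of 24 such differences the limma test passed (adjusted p under 0.05, at least 1 log2 unit, against the spread between duplicates), which were 4 of 8 receptors between KM-H2 and L1236, 1 of 8 between KM-H2 and L428 and 3 of 8 between L1236 and L428, beside 26.6%, 26.6% and 21.9% of all genes tested. Differences between these lines were thus common among all genes, and the receptors' count is no result about them. KM-H2 differed from L1236 in IL13RA1 (-3.20 log2 units, adjusted p = 1.44e-05), IL4R (-1.25, adjusted p = 0.00695), IL1R2 (-1.02, adjusted p = 0.00326) and IL2RA (1.42, adjusted p = 0.00189). KM-H2 differed from L428 in IL13RA1 (-2.32, adjusted p = 0.000128). L1236 stood above L428 in IL4R (1.05, adjusted p = 0.0189), IL2RG (1.02, adjusted p = 0.0332) and IL1R2 (1.00, adjusted p = 0.00441). In a fit of the 6 Hodgkin libraries alone with the column index as a replicate block, both IL13RA1 differences and the IL2RA and IL1R2 differences between KM-H2 and L1236 were called, and the other 4 were not (adjusted p = 0.0592 to 0.120). Each line was 2 libraries, so these values compare single cell lines.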

How the results depend on the processing

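Of 1056 values of single receptors under an alternative, 993 kept their side of the threshold, 38 lost the call and 25 gained it. Among values called in either fit, 0 changed sign. Sign changes of values called in neither fit were not counted. The comparison of Hodgkin with control lines by line was the least stable. Of the 8 tested receptors 2 were called there, against 1 with a pseudocount of 0.1 or 0.5 or with quantile normalization, 0 of 9 with no filter, 1 to 2 with 1 library left out, and 8 when libraries in place of lines were the unit. Without line KM-H2, L1236, L428 or Reh 0 receptors were called, and without Namalwa 1 (IL7R, lower). Over all genes this comparison called 80, against 11 with no filter (21217 genes tested), 28 to 109 with 1 library left out, 3614 with libraries as the unit, 0 without KM-H2, L1236, L428 or Reh, 183 without Namalwa and 191 with Reh+PMA, which is not a separate line, as a further control. Leaving out a line leaves fewer lines to measure the spread.

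Between Namalwa and Reh 3 receptors were called, against 6 with a pseudocount of 0.1. With PMA 3265 genes were called in all, against 1968 to 3395 with 1 library left out, the lower values being 1968 without Reh+PMA library 0 and 2092 without Reh library 0. The IL21R call with PMA was also lost with no trend, with only the compared libraries, and without either L1236, Namalwa, Reh or Reh+PMA library (adjusted p = 0.0510 to 0.251). IL2RA passed in L428 with a pseudocount of 0.1 (2.98) or 0.5 (1.46) and in L1236 with 0.1 (1.76, adjusted p = 0.0048), and IL2RG in L428 was called against Namalwa alone (adjusted p = 0.00534).

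Differences between libraries of equal column index correlated at -0.04 to 0.68 across pairs of conditions, and 6 of 15 were over 0.1, so the index was not taken to pair libraries in the whole series. Among the Hodgkin lines all 3 correlations were over 0.1 (0.43 for KM-H2 and L1236, 0.30 for KM-H2 and L428, 0.68 for L1236 and L428), and for Namalwa and Reh it was 0.36, so the Hodgkin differences were also read with the block. With it as a replicate block the IL21R call with PMA was lost (adjusted p = 0.0561), and the library fit of Hodgkin against control lines called 8 receptors and 3643 genes. In the 6 comparisons the block changed no other receptor's call relative to the same fit without it. With all 12 libraries it also left the 8 called differences between Hodgkin lines and the 14 called steps as they were. In the 6 Hodgkin libraries alone 6 of 24 differences between Hodgkin lines were called without the block, the lost ones being IL2RG (adjusted p = 0.111) and IL4R (0.0837) between L1236 and L428, and 4 with it. The number of lines and the unknown depth limit all values, and the causes of these changes were not tested.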
